A study of Homo sapiens with 8 samples.

Results

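Circulating tumour cells (CTC, 2 libraries) were compared with primary tumour cells (PC, 3 libraries), which together make up 5 of the 8 libraries of the series. Every gene with enough counts entered the comparison, 14255 of the 39533 genes in the table. Both groups are HCT116, a human colorectal cancer cell line, per the labels, while the title of the series speaks of liver cancer; the labels are followed here. They were taken from a model of self-seeding in which tumour cells that have left a tumour for the blood can come back to it. CTC came from blood and PC from the primary tumour, and the labels name no treatment, engineered change or time point for either. The other 3 libraries, self-seeded cells (TSC) that were also taken from the primary tumour, entered the fit for its estimate of the spread and a few side comparisons. The host animal, its age, the way the cells were parted from blood or tumour, and any step that removed reads of host cells were not given in the sources used here. No label says that replicates came from separate animals or cultures, and each p-value therefore reflects how far these libraries spread, part of which may be technical.

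A carcinoma cell that enters the blood loses its contacts with neighbouring cells and matrix, meets shear stress, platelets and leukocytes, and can die by anoikis, the cell death that follows detachment. Circulating cells are commonly recognised by epithelial proteins such as EPCAM and keratins, and their adhesion, complement shields and stress responses are the programmes most often examined. Immediate early genes, which encode transcription factors such as FOS and EGR1, are switched on within minutes by growth factors, serum, wounding or tissue handling and need no new protein for it.

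The libraries differed in depth and in base composition. CTC replicate 1 held 957607 counts and CTC replicate 2 held 10524069, against 10864761 to 19264595 in PC, so that 3 counts, the limit that a count of 0 allows, stand for 2.99 CPM (counts scaled to a library of a fixed size, with TMM factors) in CTC replicate 1, 0.286 CPM in CTC replicate 2 and 0.156 to 0.276 CPM in PC. These floors cover counting error only. Where levels are given, both CTC values therefore stand one after the other, replicate 1 first. PC replicates 1 to 3, or their range, follow, or come first where a fall is written from PC to CTC. Some calls are given by log2 difference or adjusted p alone. The level in CTC relative to PC also fell with the GC content of the transcript. The median log2 fold change was 0.26 in the 1 of 5 equal bins of genes with the lowest GC content (30.2% to 41.3%) and −0.46 in the bin with the highest (58.6% to 86.4%), and −0.04 over all genes tested. Both CTC libraries shared this gradient, as did TSC replicate 1, whereas the median of no bin departed from the mean of PC by more than 0.07 in any PC library. Of the 359 genes called lower in CTC, 163 lay in the bin with the highest GC content and 13 in the bin with the lowest. Values after correction for GC content and transcript length, an alternative chosen after seeing the data, are given below where they end a call, as the GC and length correction. How far the gradient sets the falls described below was not tested beyond that correction.

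**Figure D1:**
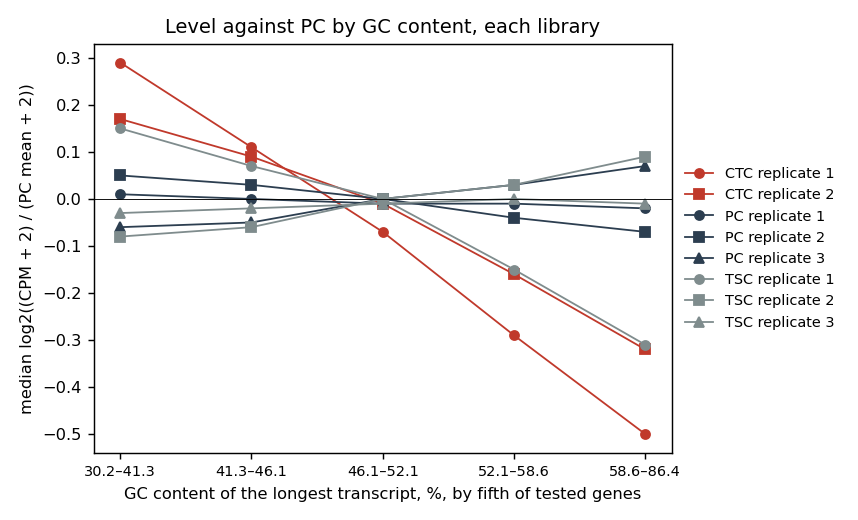
Median level of tested genes in each library relative to the mean of the 3 PC libraries, log2((CPM + 2) / (PC mean CPM + 2)), over 5 equal bins of genes by GC content of the longest transcript (%). CTC replicate 1 runs from 0.29 to −0.50, CTC replicate 2 from 0.17 to −0.32 and TSC replicate 1 from 0.15 to −0.31, while the other libraries stay near 0.

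An adjusted p under 0.05 in edgeR's quasi-likelihood test (Benjamini-Hochberg adjustment, n = 2 and 3), the threshold for a call in all that follows, was reached by 559 genes, 3.92% of those tested. Of these, 200 were higher in CTC (1.4% of tested genes) and 359 lower (2.52%). These shares, and the median of −0.04 over all genes tested, are the background for every list count below. The split moved with the correction for GC content and length together: with it 767 genes were called (5.38%), 447 higher (3.14%) and 320 lower (2.24%), so that higher genes made up 58.3% of the calls in place of 35.8%. Called in the same direction with and without it were 404 genes, 181 higher and 223 lower. Each CTC library alone was also set against PC, on the assumption that a single library varies like the other groups. CTC replicate 2 alone gave 816 calls (5.43%), 240 higher (1.6%) and 576 lower (3.83%). CTC replicate 1 alone gave 35 (0.233%), 32 higher (0.213%) and 3 lower (0.0199%). Both libraries alone called 30 genes in the same direction, 27 higher and 3 lower, the latter EGR1, FOSB and CADM4, of which CADM4 is named because the count is small. The deeper library thus carried most calls of a fall. In values, both libraries lay below the PC mean for all 359 genes called lower (medians of −1.23 and −1.43 on the log2 scale), and 197 and 200 of the 200 called higher lay above it (medians of 1.13 and 1.34). Without any test, the CTC and PC libraries did not overlap for 44.6% of tested genes, with both CTC libraries above all PC libraries for 19.9% and below for 24.7%. CTC against TSC gave 128 calls (0.898%), 75 higher (0.526%) and 53 lower (0.372%), and shares its CTC libraries with the comparison described here. Leaving out 1 PC library left 177, 182 and 154 calls for replicates 1 to 3, and leaving out TSC replicate 1, 2 or 3 gave 1575, 1054 and 285.

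**Figure D2:**
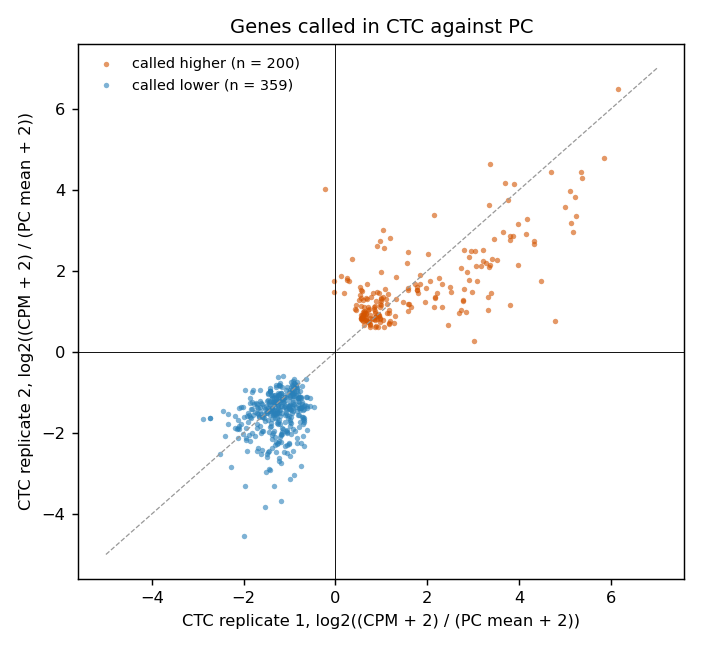
Each point is a gene called in CTC against PC, placed by its level in CTC replicate 1 (x axis) and CTC replicate 2 (y axis) relative to the PC mean, log2((CPM + 2) / (PC mean CPM + 2)); the dashed line marks equal values. All 359 genes called lower lie below 0 in both libraries, and 3 of the 200 called higher lie at or below 0 in CTC replicate 1.

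No gene of colon epithelium or of HCT116 identity was called: of 26 listed genes 16 were tested and 0 passed, with a median log2 difference of −0.40, or 0.05 with the GC and length correction. Their summed level was 5796 and 8461 CPM in CTC and 6855 to 9116 CPM in PC. In 8 of the 16 both CTC libraries lay below all PC libraries, which 24.7% of all genes did. In 1, EPCAM, both lay above, as for 19.9% of all genes. EPCAM was at 568 and 546 CPM in CTC against 391, 469 and 453 CPM in PC. It was not called (log2 0.35 ± 0.17 SE, adjusted p = 0.239). CTC replicate 1 lay below all PC libraries in 15 and CTC replicate 2 in 8. The share of all genes that did so in each library alone was not computed, so these counts have no background. KRT8, which encodes a keratin of simple epithelia, stood at 2560 and 3970 CPM in CTC and at 3020, 3470 and 4020 CPM in PC, and its partner KRT18 at 908 and 1270 against 1240, 1460 and 1760 CPM. The groups overlap for both keratins. CDH1, the gene of E-cadherin, was lower in both CTC libraries, at 111 and 82.3 CPM against 135, 138 and 213 CPM, and was not called (log2 −0.78 ± 0.24 SE, adjusted p = 0.079). GRHL2, a transcription factor of epithelial identity, was at 44.9 and 19.6 CPM against 56.7 to 57.4 CPM (adjusted p = 0.0652). Several colonic markers, among them KRT20, CLDN7, TSPAN8 and LGALS4, were at 0 in all libraries of both groups.

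**Figure D3:**
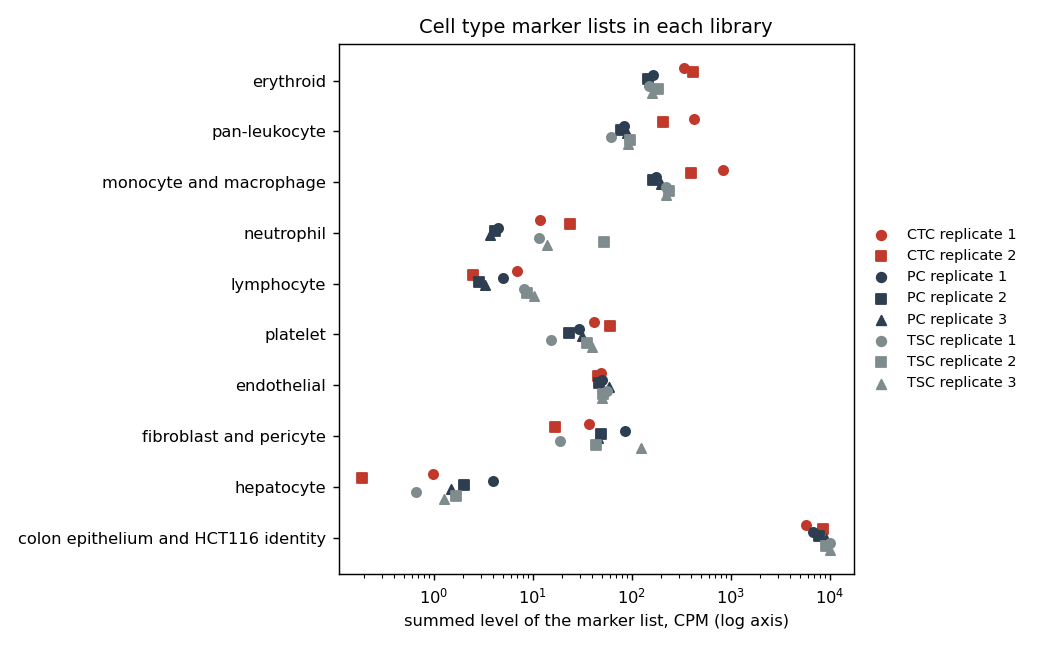
Summed level (CPM, log axis) of each cell type marker list in each library, with CTC in red, PC in dark blue and TSC in grey. The erythroid, pan-leukocyte, macrophage and platelet lists sit higher in both CTC libraries than in any other library. For platelets the margin is narrow in CTC replicate 1 (41.9 CPM, against 39.7 CPM in TSC replicate 3). The colon epithelium list reaches 5796 to 10098 CPM over all 8.

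Several markers of blood cells rose in CTC by wide margins. Summed over the list, pan-leukocyte markers held 431 and 207 CPM in CTC and 78.5 to 90.4 CPM in PC, and monocyte and macrophage markers 845 and 400 CPM against 163 to 199 CPM. CTC replicate 1 had the higher sum of both lists. Of 22 pan-leukocyte markers 15 were tested and 9 called higher, and of 28 macrophage markers 16 were tested and 8 called higher; a marker that is nearly silent in PC enters the test only through CTC, so these counts are not support for a direction. SPI1, the gene of the myeloid transcription factor PU.1, had 34 and 183 counts in CTC and 0 in the 3 PC libraries, at least 265-fold higher (with 3 counts over the PC group as the floor, adjusted p = 0.000106). PLEK, the gene of pleckstrin, a protein kinase C substrate of platelets and leukocytes, had 73 and 276 counts against 0 (at least 426-fold higher, adjusted p = 2.89e-05). ITGB2, the shared chain of leukocyte integrins, stood at 19 and 23.3 CPM against 2 counts over PC, a ratio of 482 (95% counting interval 132 to 4000, adjusted p = 2.89e-05). In a bulk library more cells of a type and more RNA per cell cannot be told apart.

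Not every defining marker of these cells had counts. The host animal and any removal of its reads were not given. A count of 0 here therefore does not show that a cell lacked the marker, and the source of these reads was not tested. CD163, AIF1, TREM2, TIMD4 and C1QA of the macrophage list and SRGN, EVI2B, CD48 and ITGAL of the pan-leukocyte list were at 0 in both CTC and PC, and CD14 had 0 and 3 counts and TYROBP 1 and 1 count in CTC. Those present included CTSS, a lysosomal protease gene of antigen-presenting cells, at 77.8 and 15.3 CPM against 0 to 0.335 CPM (adjusted p = 0.000407). The macrophage scavenger protein gene CD5L was detected at 2.99 and 2.96 CPM. The first of these values is 3 counts, the floor of CTC replicate 1. VSIG4, the complement receptor gene of tissue macrophages, was at 12 and 3.91 CPM. CD5L and VSIG4 were both at 0 in PC, which makes CD5L at least 41.5-fold (adjusted p = 0.0371) and VSIG4 at least 64.7-fold higher (adjusted p = 0.0187). CTSS, CD5L and VSIG4, silent or nearly so in PC, entered the test largely through CTC, so these values are not support for a direction. Neutrophil markers summed to 12 and 24 CPM in CTC, 3.74 to 4.52 CPM in PC and 11.6 to 52.8 CPM in TSC, with S100A8, S100A9, CSF3R and MPO at 0, and lymphocyte markers to 6.98 and 2.48 CPM against 2.85 to 5.03 CPM in PC. No neutrophil or lymphocyte marker was called.

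Erythroid markers summed to 339 and 415 CPM in CTC and 147 to 163 CPM in PC, and the rise came from few genes. Of 27 members 10 were tested and 3 called higher (30%, beside 3.92% of all genes). They were HBB, ALAS2, which makes haem in erythroid cells, and SLC4A1, the anion exchanger of the red cell membrane. Markers nearly silent in PC, such as HBB, ALAS2 and SLC4A1, entered the test only or largely through CTC, so this share is not support for a direction. HBB rose by 9.26 on the log2 scale. With 2 CPM added before the log2, its rise was 6.14 in CTC replicate 1 and 6.49 in CTC replicate 2. ALAS2 was at 26.9 and 38.2 CPM against 0.67, 0 and 0.0519 CPM (adjusted p = 0.000458), and SLC4A1 had 3 and 55 counts against 0 (at least 70.8-fold higher, adjusted p = 0.0138). HBA2, CA1, KLF1 and GATA1 were at 0 in both groups and HBA1 had 0 counts in CTC. The minor globin gene HBD overlapped between the groups (52.9 and 78.5 CPM against 61.7, 55.3 and 50.3 CPM, adjusted p = 0.443), and is among the genes that keep the PC sum above 0. Platelet markers summed to 41.9 and 60.9 CPM in CTC and 23.3 to 31.4 CPM in PC. Of 17 members 5 were tested and 1 called higher (20%, beside 3.92% of all genes), or 3 with the GC and length correction. The called member was F13A1, a coagulation factor that macrophages also make. It had 8 and 46 counts against 0 (at least 65.9-fold higher, adjusted p = 0.0124). F13A1 entered the test only through CTC, so this share is not support for a direction. PPBP, PF4, GP9 and SELP were at 0. The endothelial list had 0 calls of 3 tested and the fibroblast list 0 of 7, and no hepatocyte marker had enough counts to be tested. Without CTC replicate 2, 3 pan-leukocyte, 5 macrophage and 1 erythroid member kept their calls (adjusted p up to 0.155, 0.0754 and 0.158 for the others that could be tested); without CTC replicate 1, all but PTPRC (adjusted p = 0.0525) and CD5L (adjusted p = 0.0564) kept theirs, and without a PC library IKZF1, LAPTM5, PTPRC, CD5L, VSIG4 and SLC4A1 were lost at adjusted p up to 0.118. CD5L was lost without TSC replicate 3 too (adjusted p = 0.0545), and F13A1, VSIG4, CD5L, IKZF1 and SLC4A1 had too few counts to be tested without CTC replicate 2.

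A mesenchymal shift is often looked for in circulating cells, and 4 genes of that 20-gene list were higher in CTC beside the blood cell markers. Of 15 tested members FN1, VIM, ZEB2 and TGFBI were called higher and SPARC lower (33.3%, beside 3.92% of all genes). TGFBI and ZEB2 were nearly silent in PC and entered the test largely through CTC, so this share is not support for a direction. FN1, which encodes fibronectin and lies on chromosome 2 (215360865 to 215436068, GRCh38), was at 728 and 609 CPM in CTC and 31.2, 16.3 and 31.1 CPM in PC, 25.4-fold higher (log2 4.67 ± 0.51 SE, adjusted p = 0.000192). It was the only one of these 4 with a PC mean above 5 CPM. ZEB2, a repressor of E-cadherin that is also expressed by myeloid cells, was at 107 and 55.5 CPM against 0.838, 0 and 1.14 CPM (adjusted p = 0.000674). The intermediate filament gene VIM was at 221 and 104 CPM against 1.75 to 4.36 CPM (adjusted p = 8.15e-06), and the matrix protein gene TGFBI at 42.9 and 4.86 CPM against 1 count over PC, a ratio of 344 (95% counting interval 60.3 to 13700, adjusted p = 0.00309). All 4 were higher in CTC replicate 1 than in CTC replicate 2, as was the pan-leukocyte sum. The part of leukocyte RNA in their rise was not tested. Other transcription factors known to drive the shift were not called: ZEB1 was at 7.98 and 12.7 against 4.51 to 9.97 CPM (adjusted p = 0.499), SNAI1 at 3.99 and 6.29 against 9.38 to 12.5 CPM (adjusted p = 0.172), and TWIST1 at 0 in CTC against 1.17 to 1.71 CPM (adjusted p = 0.117). SPARC, a matricellular protein gene, had 0 counts in both CTC libraries and 87, 52 and 121 counts in PC, at least 23.7-fold lower (adjusted p = 0.0138, and 0.296 without CTC replicate 2).

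Among genes that PC expressed at a mean of 5 CPM or more, the 15 largest rises were FN1, UCP2, PLPP1, RCAN1, DONSON, GDA, LRP1, CAMK1, CEBPA, THBS1, MPP1, PABPC3, QKI, AP1S2 and TSC22D3. UCP2 on chromosome 11 (73974672 to 73983202), which encodes an uncoupling carrier of the inner mitochondrial membrane, was at 115 and 56.3 CPM in CTC and 5.61, 4.05 and 8.31 CPM in PC, 13.6-fold higher (log2 3.76 ± 0.35 SE, adjusted p = 4.58e-05). The QKI gene on chromosome 6 (163414718 to 163578592), whose product binds RNA and directs splicing, was at 92.8 and 72.0 CPM against 25.8, 27.4 and 22.3 CPM, 3.22-fold higher (1.69 ± 0.22, adjusted p = 0.00101). Neither group overlapped the other for any of the 15, which the rule that named them required. Both CTC libraries alone called FN1, UCP2, LRP1, CAMK1, PABPC3 and QKI. PABPC3 is a near copy of PABPC1, so its count may hold reads of that gene. LRP1, an endocytic receptor gene that macrophages express strongly, was at 229 and 122 CPM against 41.5, 31.5 and 43.5 CPM (2.14 ± 0.37, adjusted p = 0.00763). The calcium-dependent kinase gene CAMK1 was at 37.9 and 30.5 CPM against 6.18 to 8.55 CPM (2.14 ± 0.32, adjusted p = 0.00331), and CEBPA, a transcription factor gene of myeloid and epithelial differentiation, at 34.9 and 19.8 CPM against 4.32 to 7.37 CPM (2.12 ± 0.46, adjusted p = 0.0233). Of the 15, PLPP1, RCAN1, GDA, THBS1 and TSC22D3 were higher in CTC replicate 2 than in replicate 1. The other 10 were higher in CTC replicate 1, which also had the higher sums of pan-leukocyte and macrophage markers (431 against 207 CPM and 845 against 400 CPM); the part of those cells in these rises was not tested.

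For 3 of the genes that were higher in CTC replicate 2 than in replicate 1, replicate 2 lay within or above the range of self-seeded cells and replicate 1 below it. RCAN1, an inhibitor of the phosphatase calcineurin, was at 32.9 and 114 CPM in CTC, 14.6 to 19.9 CPM in PC and 91.8 to 134 CPM in TSC. PLPP1, a lipid phosphatase gene, was at 13 and 56.7 CPM in CTC, 4.1 to 6.26 CPM in PC and 37.3 to 43.7 CPM in TSC, and GDA, the guanine deaminase gene, at 43.9 and 128 CPM, 14.5 to 23.8 CPM and 63.0 to 114 CPM. CTC and TSC were not called different for these 3 (log2 −0.45, −0.05 and 0.14, adjusted p = 0.544, 0.964 and 0.891), which does not show that they are equal. THBS1, the gene of the adhesive glycoprotein thrombospondin 1, differed from both: it was at 73.8 and 116 CPM in CTC, 17.2, 26.3 and 27.6 CPM in PC (4.09-fold, 2.03 ± 0.30, adjusted p = 0.00276) and 8.24 to 16.8 CPM in TSC (adjusted p = 0.000199). Without CTC replicate 2 the call of 8 of the 15 was lost (AP1S2, CEBPA, GDA, MPP1, PLPP1, RCAN1, THBS1 and TSC22D3, adjusted p from 0.0741 to 0.313), and without CTC replicate 1 those of DONSON (adjusted p = 0.645) and CEBPA (adjusted p = 0.0687). Leaving out PC replicate 1, 2 or 3 left 11, 12 and 11 of the 15, with CEBPA, DONSON and TSC22D3 lost each time (adjusted p up to 0.127), and leaving out TSC replicate 3 left 14 (DONSON at 0.0635).

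The 12 largest falls by log2 fold change are given among called genes whose average log2 CPM reached 3 and whose groups did not overlap. They came from genes of varied roles. Scarcer genes such as SPARC, BMF and HRK had larger log2 falls. IGSF9, an adhesion molecule gene of the immunoglobulin family on chromosome 1 (159927041 to 159945613), was at 7.98 and 1.91 CPM in CTC and 35.9, 37.3 and 37.5 CPM in PC, 12.5-fold lower (log2 −3.65 ± 0.46 SE, adjusted p = 0.0007). CEMIP, which encodes a hyaluronan-degrading protein, was at 11 and 0.668 CPM against 20.6, 33.6 and 53.3 CPM (−3.95 ± 0.88, adjusted p = 0.0256). PTCH1, the Hedgehog receptor and target gene, was at 6.98 and 2.48 CPM against 15.9, 21.2 and 30.3 CPM (−2.73 ± 0.68, adjusted p = 0.0381). The other genes of this set were ADAMTS7, CACNA2D2, EGR1, EGR3, GRHL3, MAP2, RBPMS, RPS6KA2, an S6 kinase gene of the ERK pathway, and RUNX2, a transcription factor gene of bone, with log2 changes from −2.72 to −3.48. All 12 were lower in CTC replicate 2 than in CTC replicate 1, where several rest on 2 to 12 counts. With CTC replicate 2 left out, EGR1 alone of the 12 kept its call (adjusted p of the others 0.0792 to 0.486); with CTC replicate 1 left out all 12 kept it, and 7, 6 and 6 did so without PC replicates 1, 2 and 3 and 8 without TSC replicate 3. All 12 also passed with the correction for GC content and length.

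Immediate early genes were the list with the most falls. Of 31 tested members 10 fell and 2 rose, 38.7% called against 3.92% of all genes, and the median log2 difference was −0.99, against −0.04 over all genes (per library −0.67 and −1.01). In 24 of the 31 both CTC libraries lay below all 3 PC libraries, which 24.7% of all genes did. The 150 bases upstream of the RefSeq start are shown for FOSB, JUNB, RHOB and EGR1, the 4 called members with an entry and the smallest p, to set the fallers beside the riser RHOB. All read 5′ to 3′ on the plus strand of GRCh38.p14, at chr19:45467846-45467995, chr19:12791336-12791485, chr2:20446924-20447073 and chr5:138465329-138465478, and capitals mark the motifs found.
FOSB: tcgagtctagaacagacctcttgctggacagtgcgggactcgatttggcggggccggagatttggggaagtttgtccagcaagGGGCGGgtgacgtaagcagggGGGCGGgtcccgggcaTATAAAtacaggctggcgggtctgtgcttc
JUNB: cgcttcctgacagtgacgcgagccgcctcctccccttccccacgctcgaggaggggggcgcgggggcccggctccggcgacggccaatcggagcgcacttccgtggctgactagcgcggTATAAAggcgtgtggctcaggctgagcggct
RHOB: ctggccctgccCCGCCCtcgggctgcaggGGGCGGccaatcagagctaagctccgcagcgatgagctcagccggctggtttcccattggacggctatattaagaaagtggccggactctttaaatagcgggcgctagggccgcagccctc
EGR1: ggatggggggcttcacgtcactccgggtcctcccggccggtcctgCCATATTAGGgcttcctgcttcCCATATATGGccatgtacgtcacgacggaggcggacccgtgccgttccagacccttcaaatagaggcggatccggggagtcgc

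Both strands were searched for 5 motifs, and none of the matches shown overlaps another. The CArG box is the site of serum response factor, TGACGTCA the cAMP response element and TGANTCA the AP-1 site, while TATAAA positions the polymerase and the element GGGCGG binds Sp1. EGR1 holds 2 CArG boxes, 105 to 96 and 83 to 74 bases before the start. FOSB and JUNB hold TATAAA at 30 to 25 and 31 to 26 bases, and RHOB and FOSB each hold GGGCGG at 2 places. Among 35116 promoters of this length in the table, 0.769% held a CArG box and 1.4% held TGACGTCA. The AP-1 letters were found in 4.17%, those that position the polymerase in 6.71% and the Sp1 letters in 36.8%. Of the 9 called members with an entry, 1 held a CArG box, 4 the TATAAA element, 5 the Sp1 element and 0 either of the other 2. A match describes these letters only.

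FOSB, an AP-1 subunit gene on chromosome 19 (45467996 to 45475179), was at 83.8 and 56.4 CPM in CTC and 281, 509 and 449 CPM in PC. EGR1 was at 369 and 61.3 CPM against 1140, 1570 and 1710 CPM. These were the members that fell with each CTC library alone (adjusted p = 0.0141 and 0.000977 for FOSB, 0.0425 and 0.000147 for EGR1). JUNB fell 2.84-fold, from 259, 294 and 293 CPM to 122 and 81.3 CPM (log2 −1.51 ± 0.25 SE, adjusted p = 0.00653). The nuclear receptor genes NR4A1, NR4A2 and NR4A3 fell as well, NR4A1 from 198, 290 and 230 CPM to 66.8 and 58.3 CPM (−1.95, adjusted p = 0.0189). FOS was at 261 and 44.7 CPM against 447, 697 and 640 CPM (−2.05 ± 0.54, adjusted p = 0.049). EGR3, IER2 and ARC complete the 10. Not all members were called: JUN was at 437 and 320 CPM against 372, 508 and 526 CPM (adjusted p = 0.421), MYC at 577 and 825 CPM against 604, 618 and 758 CPM (adjusted p = 0.811), and KLF6 at 232 and 346 CPM against 191, 283 and 256 CPM (adjusted p = 0.55). The groups overlap for all 3.

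RHOB and SGK1 rose against this direction. RHOB, the gene of a short-lived small GTPase, was at 241 and 358 CPM in CTC and 138, 142 and 140 CPM in PC, 2.16-fold higher (1.11 ± 0.19, adjusted p = 0.00826), and at 239 to 305 CPM in TSC. The kinase gene SGK1 was at 29.9 and 7.73 CPM against 3.35, 2.85 and 2.13 CPM (2.60, adjusted p = 0.0272). Without CTC replicate 2, 3 of the 12 calls remained (EGR1, FOSB and SGK1, with adjusted p of up to 0.358 for the others), and without CTC replicate 1 those of ARC and SGK1 were lost (adjusted p of up to 0.124). Without PC replicates 1, 2 and 3 in turn 7, 5 and 6 of the 12 were kept, and without TSC replicate 3 8 were. With the correction for GC content and length ARC and IER2 were lost and the list's median was −0.65. In TSC, EGR1 stood between the groups at 394, 704 and 644 CPM (CTC minus TSC −1.50, adjusted p = 0.165) and FOSB at 170, 179 and 193 CPM (−1.41, adjusted p = 0.0225).

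**Figure D4:**
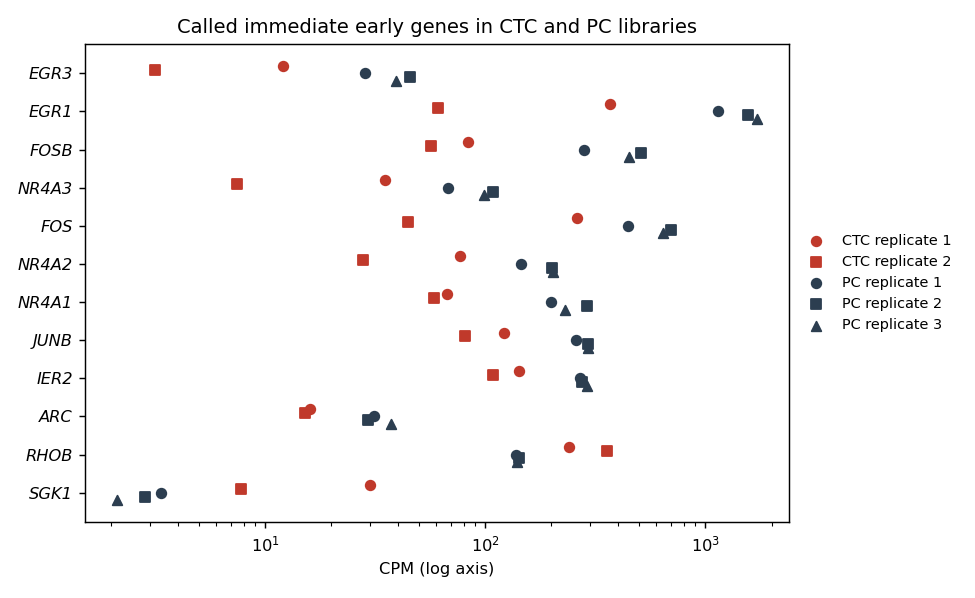
Level (CPM, log axis) of the 12 called immediate early genes in the 2 CTC libraries (red) and the 3 PC libraries (dark blue). Both CTC points lie left of all PC points for the 10 genes that fell and right of them for RHOB and SGK1.

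Some genes that ERK signalling induces and that feed back on it fell too. Of 19 tested members 5 fell, 0 rose and 14 were not called (26.3% called, beside 3.92% of all genes). Their median was −0.47, against −0.04 over all genes. DUSP6, the ERK phosphatase gene, was at 101 and 35.8 CPM in CTC and 172, 222 and 238 CPM in PC, 3.37-fold lower (log2 −1.75 ± 0.36 SE, adjusted p = 0.0198). SPRY4, a Sprouty inhibitor gene, fell from 132, 144 and 158 CPM to 83.8 and 42.1 CPM (−1.29 ± 0.30, adjusted p = 0.0302), and the transcription factor gene ETV4 by 1.29 (adjusted p = 0.0303, and 0.0507 with the GC and length correction). The low-level genes IL1RAP, at 0.998 and 0.668 against 5.28 to 16.2 CPM, and SPRED3, with 0 and 1 count against 56, 25 and 115, were the others. Others of the list were not called: CCND1 was at 548 and 676 CPM against 565, 592 and 665 CPM (adjusted p = 0.97), DUSP4 at 168 and 252 CPM against 213, 225 and 304 CPM (adjusted p = 0.663). None of the 5 kept its call without CTC replicate 2 (adjusted p 0.23 to 0.326) or PC replicate 3 (0.0693 to 0.123), 2 did without PC replicate 1 or 2, 3 without TSC replicate 3, and all 5 without CTC replicate 1.

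Other developmental pathways gave single falls. Of 16 tested Wnt targets and intestinal stem cell genes 3 fell (18.8%, median −0.65, or −0.21 with the GC and length correction): RNF43, a ligase gene that removes Wnt receptors, TCF7 and SOX9. RNF43 was at 17 and 5.05 CPM against 39.9, 51.7 and 58.1 CPM, 6.28-fold lower (−2.65 ± 0.42, adjusted p = 0.00437). TCF7, a transcription factor gene at the end of the pathway, was at 18 and 16 CPM against 37.7, 49.5 and 49.0 CPM (−1.45 ± 0.26, adjusted p = 0.0105), with almost equal values in both CTC libraries, and was lower than in TSC as well (−1.4, adjusted p = 0.0243). Of 13 tested Notch genes 3 fell (23.1%, median −0.79, or −0.21 corrected): the ligand JAG1, from 158 to 187 CPM to 106 and 32.9 CPM, the target HES1, from 99.5 to 103 CPM to 58.9 and 12.7 CPM, and DTX4 (adjusted p = 0.0432, 0.0366 and 0.0171). HES1 stood at 28.5 to 35.0 CPM in TSC. The receptor NOTCH1 was at 40.9 and 40.7 CPM against 95.9 to 146 CPM and was not called (adjusted p = 0.0535). No call of the 2 lists was kept without CTC replicate 2 (adjusted p 0.162 to 0.32), and JAG1, HES1 and SOX9 were lost without any single PC library (adjusted p up to 0.129) and without TSC replicate 3 (up to 0.0737). DTX4 was lost without PC replicate 2 or 3 (from 0.0562).

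TGF-beta and BMP responses were split. Of 22 tested genes THBS1 and TGFBI rose and BAMBI, ID1, ID4 and LTBP3 fell (27.3% called, median −0.49). ID1, a BMP target gene, was at 139 and 76.2 CPM against 273, 237 and 317 CPM (−1.41, adjusted p = 0.0437), and BAMBI, the gene of a decoy receptor, at 28.9 and 18.1 CPM against 51.3, 63.6 and 61.7 CPM (−1.43 ± 0.27, adjusted p = 0.0124). LTBP3 was not called with the GC and length correction (adjusted p = 0.189) or without CTC replicate 1 (0.098). ID1, ID4 and LTBP3 were lost without any single PC library or TSC replicate 3 (adjusted p up to 0.163), and BAMBI without PC replicate 2 or 3. Of 23 tested YAP and TEAD targets 2 fell (8.7%): CCN1, a matricellular gene that is also an immediate early gene, from 89.4, 137 and 119 CPM to 49.9 and 26.5 CPM (−1.71 ± 0.34, adjusted p = 0.0153), and WWC1 (−0.89 ± 0.20, adjusted p = 0.0276, and 0.17 with the GC and length correction). Without CTC replicate 2 TGFBI alone of these 8 was called, without PC replicate 2 CCN1 was at adjusted p = 0.055, and WWC1 was lost without each PC library and TSC replicate 3 (adjusted p up to 0.108).

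Hypoxia response genes lay lower in CTC, most of all in replicate 2. Of 29 tested members 5 fell and 0 rose (17.2% called), the median was −0.91 (−0.58 and −1.21 per library), and in 22 both CTC libraries lay below all 3 PC libraries, which 24.7% of all genes did. SLC2A1, the glucose transporter gene, was at 733 and 241 CPM in CTC and 1080, 1360 and 1910 CPM in PC, 3.02-fold lower (log2 −1.59 ± 0.36 SE, adjusted p = 0.0277). PFKFB4, which encodes a regulator of glycolytic flux, was at 30.9 and 14.1 CPM against 81.2, 77.3 and 111 CPM (−2.21 ± 0.41, adjusted p = 0.0114). INSIG2, P4HA2 and ANKRD37 were the other 3. ADM, the adrenomedullin gene, shows how far the 2 CTC libraries parted: it was at 84.8 and 7.15 CPM against 122, 153 and 213 CPM and was not called (adjusted p = 0.0865), though CTC replicate 2 alone was (adjusted p = 0.000977). With CTC replicate 2 alone 12 members were called lower and with CTC replicate 1 alone 0 (adjusted p of the 5 above 0.23 to 0.367). The GC and length correction kept all 5 and gave 8. Without PC replicates 1, 2 and 3, 2, 1 and 1 of the 5 were kept and without TSC replicate 3 1 was, PFKFB4 each time. Without CTC replicate 1 3 were kept.

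Glycolysis genes followed in part: ALDOC, PFKL and ENO2 fell among 17 tested (17.6%, median −0.42, or −0.14 corrected), ALDOC from 113, 146 and 160 CPM to 69.8 and 51.8 CPM (−1.24 ± 0.23, adjusted p = 0.0108). PFKL and ENO2 were not called with the GC and length correction (adjusted p = 0.182 and 0.0513), and none of the 3 without CTC replicate 2 (adjusted p from 0.203). ENO2 was lost without any single library of CTC or PC and without TSC replicate 3, and PFKL without PC replicate 1 or 3 (adjusted p up to 0.257). Of 33 genes of cholesterol and fatty acid synthesis FASN, the fatty acid synthase gene, fell from 1300, 1410 and 1840 CPM to 609 and 643 CPM (−1.28 ± 0.25, adjusted p = 0.0146) and its regulator SREBF1 from 231 to 250 CPM to 128 and 106 CPM (−1.06 ± 0.25, adjusted p = 0.0339). The 2 CTC values lie close together for both genes. Both calls ended with the GC and length correction (−0.39 and −0.38, adjusted p = 0.12 and 0.211) and without either CTC library (adjusted p from 0.0525 to 0.29). SREBF1 was lost without any PC library or TSC replicate 3 and FASN without PC replicate 3 (adjusted p up to 0.1). Nuclear-encoded oxidative phosphorylation had 0 calls among 40 tested, with a median of 0.19. Its member with the smallest p, SDHB of complex II, was at 127 and 167 CPM against 84.9 to 108 CPM (adjusted p = 0.103).

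**Figure D5:**
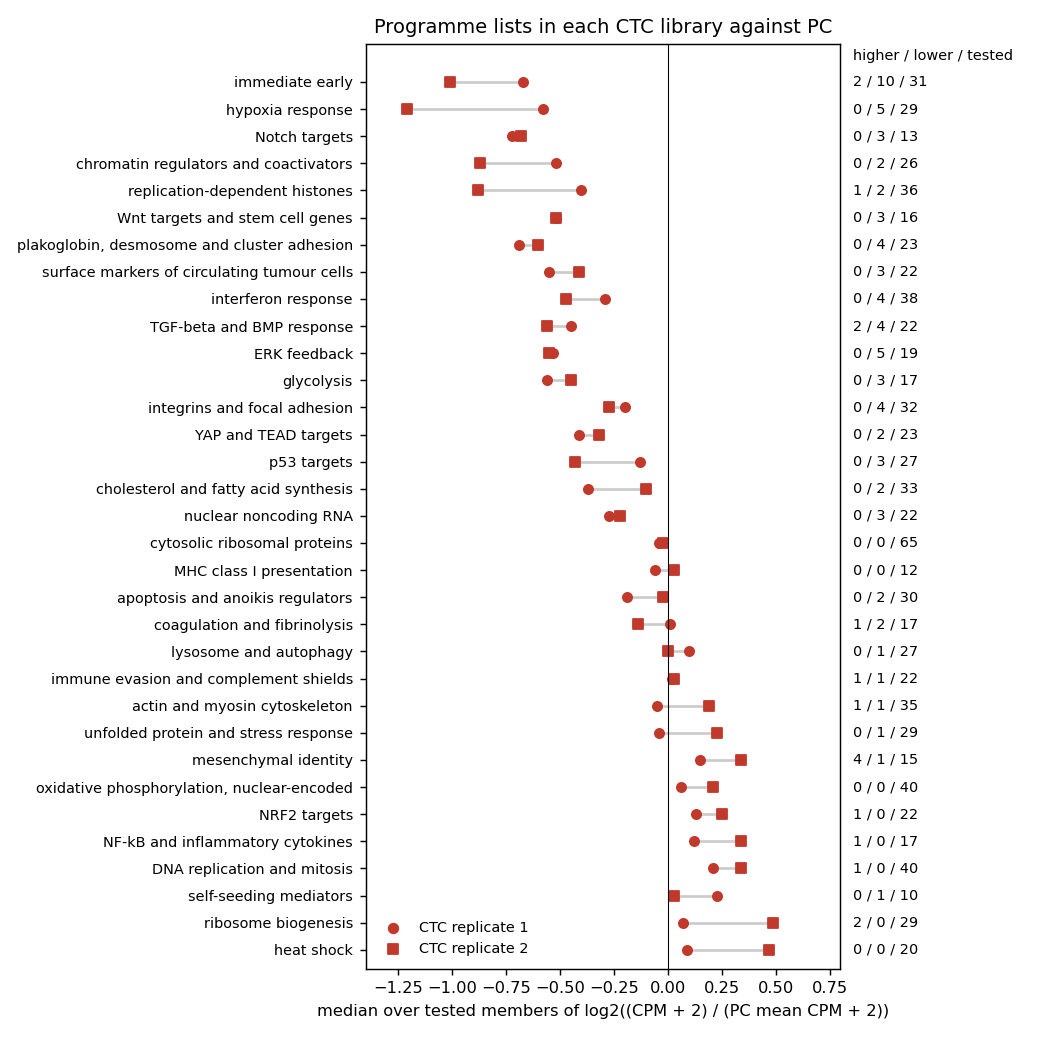
Median over the tested members of each programme list of log2((CPM + 2) / (PC mean CPM + 2)), one point per CTC library, joined by a line; the numbers at the right give members called higher, called lower and tested. Immediate early and hypoxia response genes lie lowest in CTC replicate 2 (−1.01 and −1.21), and ribosomal proteins and MHC class I genes lie near 0 in both libraries.

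Adhesion genes that hold epithelial cells to each other and to the matrix fell in part. Of 23 tested genes of desmosomes, plakoglobin and cell clusters 4 fell and 0 rose (17.4%, median −0.64, or −0.39 corrected): CDH3, the P-cadherin gene, the cornified envelope and desmosome linkers PPL and EVPL, and NECTIN1. PPL was at 37.9 and 46.8 CPM in CTC and 165, 142 and 203 CPM in PC (log2 −1.97 ± 0.45 SE, adjusted p = 0.0276). In TSC its values were 42.1, 184 and 89.6 CPM, a wide spread in which TSC replicate 1, which shares the GC gradient, was the lowest. JUP, the plakoglobin gene that is known for holding circulating clusters together, was at 323 and 261 CPM against 516, 509 and 726 CPM and was not called (−1.01 ± 0.30, adjusted p = 0.0689). With the GC and length correction PPL alone kept its call, and without CTC replicate 2 or any single PC library none of the 4 did (adjusted p from 0.0506 to 0.341). CDH3 alone was called without CTC replicate 1 or TSC replicate 3.

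Of 32 tested integrin and focal adhesion genes 4 fell, TNS4, ITGB4 and ACTN1 among them (12.5%, median −0.27, or −0.05 corrected). TNS4, a tensin gene of epithelia, was at 8.98 and 3.53 CPM against 20.9, 23.6 and 29.5 CPM (−2.38 ± 0.47, adjusted p = 0.0157). ITGB4, the hemidesmosome integrin gene, was at 258 and 219 CPM against 508, 532 and 901 CPM (−1.44 ± 0.34, adjusted p = 0.0301, and 0.0645 with the GC and length correction). The correction also ended the call of ACTN1 (adjusted p = 0.144). TNS4 alone of the 4 was called without CTC replicate 1 (adjusted p of the others up to 0.13), 0 without CTC replicate 2 (0.208 to 0.341), 0 without PC replicate 3 (0.0605 to 0.171), 3 without PC replicate 1 and TNS4 alone without PC replicate 2 or TSC replicate 3. Of 35 tested actin and myosin genes RHOB rose and MYH10, a nonmuscle myosin heavy chain gene, fell from 193, 213 and 260 CPM to 90.8 and 70.7 CPM (−1.49 ± 0.26, adjusted p = 0.00837). Both calls held without any PC library and with the GC and length correction, and both ended without CTC replicate 2 (adjusted p = 0.195 for each).

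Few genes of surface proteins used to capture circulating cells were called. Of 22 tested, 0 rose and L1CAM, ITGB4 and CD24 fell (13.6%, median −0.49, or −0.21 corrected). L1CAM, an adhesion molecule gene of regenerating and metastatic cells, was at 4.99 and 14.4 CPM against 39.9, 43.0 and 65.0 CPM (−2.06 ± 0.44, adjusted p = 0.0215). CD24, a small surface glycoprotein gene that also restrains phagocytes, was at 17 and 4.77 CPM against 29.7, 26.3 and 33.8 CPM (−1.93 ± 0.49, adjusted p = 0.0417). MET, the receptor gene of hepatocyte growth factor, was at 554 and 648 CPM against 441 to 527 CPM (adjusted p = 0.338), CD44 at 1650 and 2190 CPM against 1490 to 2050 CPM (adjusted p = 0.65), and PROM1 at 22.9 and 30.3 CPM against 36.5 to 41.4 CPM (adjusted p = 0.175). L1CAM was lost without either CTC library (adjusted p = 0.0544 without replicate 1 and 0.153 without replicate 2), and CD24 without CTC replicate 2 (0.487) or any single PC library (up to 0.13). Without PC replicate 3 none of the 3 was called (0.0723 to 0.13). Without TSC replicate 3 CD24 was at 0.0752 and ITGB4 was also lost.

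Among 22 tested genes that shield cells from complement and immune cells CD55 was called higher (CD24 was the gene called lower, 9.09% in all). CD55, which speeds the decay of complement convertases, was at 70.8 and 123 CPM against 46.2, 48.5 and 47.2 CPM, 2.11-fold higher (1.08 ± 0.23, adjusted p = 0.0214). The other complement regulators CD46 and CD59 were at 106 and 76.4 and at 94.8 and 105 CPM, within or beside the PC range of 80.0 to 107 and 94.7 to 102 CPM. CD47 was at 36.9 and 32.2 CPM against 23.2 to 36.4 CPM (adjusted p = 0.743) and CD274, the PD-L1 gene, at 2.99 and 1.24 CPM against 1.01 to 1.66 CPM (adjusted p = 0.797), where the first value is 3 counts. The CD55 call ended without CTC replicate 2 (adjusted p = 0.359) and without PC replicate 1, 2 or 3 (adjusted p = 0.0735, 0.0656 and 0.0715).

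In coagulation and fibrinolysis THBS1 rose and PLAU and PROS1 fell among 17 tested (17.6%, median 0.03). PLAU, the gene of urokinase, a protease that activates plasminogen, was at 5.98 and 10.2 CPM against 33.9, 30.8 and 38.6 CPM, 3.79-fold lower (−1.92 ± 0.30, adjusted p = 0.00404), and lower than in TSC (−1.49, adjusted p = 0.0322). It kept its call without each PC and each TSC library and missed the threshold without CTC replicate 2 (adjusted p = 0.0627). Its receptor PLAUR was at 31.9 and 24.9 CPM against 41.0 CPM or more in each PC library (adjusted p = 0.0616). F3, the tissue factor gene that starts clotting, was at 70.8 and 130 CPM around the PC values of 89.3, 96.1 and 105 CPM. PROS1, the gene of the anticoagulant protein S, fell by 1.11 on the log2 scale (adjusted p = 0.0339, up to 0.125 without a PC library and 0.0584 without TSC replicate 3). PLAU was also the 1 member called among 10 tested mediators of self-seeding (10%), where FSCN1 was at 262 and 309 CPM against 344 to 462 CPM (adjusted p = 0.155), and IL6, MMP1 and CXCL12 had too few counts to be tested.

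Regulators of apoptosis were nearly level: of 30 tested, 0 rose and BMF and HRK fell (6.67%, median 0.02). BMF, the gene of a BH3-only protein that links loss of adhesion to cell death, had 0 and 3 counts in CTC and 74, 49 and 113 in PC, a ratio of 0.0466 (95% counting interval 0.00953 to 0.138, adjusted p = 0.036). HRK, another BH3-only gene, had 0 and 1 count against 29, 53 and 38, a ratio of 0.0305 (0.000766 to 0.173, adjusted p = 0.0347). Neither call held without CTC replicate 2 (adjusted p = 0.306 and 0.358) or without any single PC library or TSC replicate 3 (up to 0.108). MCL1 was at 253 and 273 CPM against 219 to 244 CPM (adjusted p = 0.525), and BCL2L11, the BIM gene, at 26.9 and 29.9 CPM against 40.9 to 53.4 CPM (adjusted p = 0.107). Of 27 tested p53 targets 3 fell, GDF15 and TP53INP1 among them (11.1%, median −0.23). GDF15, a stress cytokine gene, was at 23.9 and 20.4 CPM against 57.5, 56.0 and 61.8 CPM (−1.44 ± 0.29, adjusted p = 0.0171), with little spread in either group. CDKN1A was at 79.8 and 42.8 CPM against 103 to 115 CPM (adjusted p = 0.0664) and MDM2 at 293 and 268 CPM against 226 to 275 CPM (adjusted p = 0.664). None of the 3 was called without CTC replicate 2 (adjusted p 0.214 to 0.299), PC replicate 1 (0.0523 to 0.133) or PC replicate 3 (0.0615 to 0.146), and GDF15 alone was without CTC replicate 1, PC replicate 2 or TSC replicate 3.

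Stress and inflammatory lists gave a few single calls, in shares of up to 5.88% beside 3.92% of all genes. NFKBIA, the gene of the NF-kB inhibitor that NF-kB itself induces, was the 1 member called of 17 tested (5.88%): it was at 93.8 and 98.5 CPM in CTC and 43.2, 41.4 and 41.8 CPM in PC, 2.29-fold higher (log2 1.19 ± 0.18 SE, adjusted p = 0.00404). Both groups varied little, and the call ended only without CTC replicate 2 among the single libraries left out (adjusted p = 0.0783). TXNRD1, the thioredoxin reductase gene, was the 1 of 22 tested NRF2 targets that rose (4.55%), at 387 and 671 CPM against 258, 304 and 256 CPM (0.97 ± 0.23, adjusted p = 0.0331), and was lost without CTC replicate 2 (adjusted p = 0.39) or any single PC library (up to 0.108). DDIT3, the CHOP gene, fell by 1.35 on the log2 scale (adjusted p = 0.0386, 0.355 without CTC replicate 2, up to 0.131 without a PC library and 0.0666 without TSC replicate 3) as the 1 call among 29 stress response genes (3.45%, near the background). Heat shock genes had 0 calls among 20 tested, with a median of 0.34 (0.09 and 0.47 per library). HSPA8 was at 3200 and 5270 CPM against 2310 to 3030 CPM (adjusted p = 0.108).

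Interferon response genes IFI6, OAS3, IFI44 and ISG15 fell among 38 tested (10.5%, median −0.49). IFI6 was at 187 and 222 CPM in CTC and 425, 579 and 404 CPM in PC (log2 −1.19 ± 0.26 SE, adjusted p = 0.0231), but 63.5 to 117 CPM in TSC, so that CTC lay between the other groups (CTC minus TSC 1.28, adjusted p = 0.0293). OAS3, an antiviral enzyme gene, was at 151 and 173 CPM against 273, 301 and 286 CPM (−0.82 ± 0.20, adjusted p = 0.036). None of the 4 was called with either CTC library alone (adjusted p from 0.0508 to 0.336) or without PC replicate 1 or 2 (0.0548 to 0.142), IFI6 alone was without PC replicate 3 or TSC replicate 3, and OAS3 and ISG15 were lost with the GC and length correction (0.179 and 0.074). Of 12 tested genes of MHC class I presentation 0 were called, with a median of −0.02; B2M, the light chain gene of class I molecules, had few counts in both groups, at 2.99 and 8.97 CPM against 4.98 to 10.6 CPM.

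Growth and housekeeping programmes gave few calls. Of 40 tested genes of DNA replication and mitosis ASPM, a spindle gene, was called, at 167 and 133 CPM against 94.5, 81.2 and 83.1 CPM (0.79 ± 0.20, adjusted p = 0.04; 2.5% called), and it lost the call without any single library of CTC or PC (adjusted p 0.0912 to 0.164) or TSC replicate 3 (0.0653). KIF23 (0.79, adjusted p = 0.0506) and CCNB2 (0.78, adjusted p = 0.0626) lay close to it. MKI67 went the other way, at 338 and 283 CPM against 933, 798 and 895 CPM, and was not called (−1.50 ± 0.48, adjusted p = 0.0853). Cytosolic ribosomal proteins had 0 calls of 65, with a median of −0.02. In ribosome biogenesis (29 tested, 6.9% called) the nucleolar genes DDX21, at 547 and 709 CPM against 330, 391 and 337 CPM, and NPM1, at 2880 and 3220 CPM against 1960, 2020 and 1690 CPM, rose (adjusted p = 0.0246 and 0.0369). NPM1 was not called with the GC and length correction (adjusted p = 0.0933), without CTC replicate 1 (0.0512) or without TSC replicate 3 (0.0657), and neither was called without CTC replicate 2 (0.277 for both) or any PC library (0.059 to 0.122).

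The libraries hold RNA without a poly(A) tail, which was lower in CTC in part. Of 22 tested nuclear noncoding RNAs TERC, RMRP and RPPH1 fell (13.6%). TERC, the telomerase RNA, was at 128 and 129 CPM against 315, 289 and 289 CPM, 2.32-fold lower (log2 −1.21 ± 0.23 SE, adjusted p = 0.0135), and lower than in TSC (−1.11, adjusted p = 0.0396). RMRP, the RNA of the RNase MRP enzyme, was at 2170 and 2430 CPM against 6590, 5410 and 2780 CPM, with PC replicate 3 near the CTC values, and ended its call with the GC and length correction (adjusted p = 0.0909), as did RPPH1 (0.225). Of 36 tested replication-dependent histone genes H4C3 and H2BC11 fell and H4C9 rose (8.33%, median −0.69). H2BC11 was at 133 and 93.7 CPM against 285, 262 and 182 CPM (−1.13 ± 0.28, adjusted p = 0.04). H4C9 had 5 and 50 counts against 4 over PC. Histone genes are near copies of each other, so that reads may be shared among them. None of these 6 was called without CTC replicate 2 (adjusted p 0.188 to 0.334), and of the 6 TERC alone was called without PC replicate 1 or 2. Without CTC replicate 1 RMRP, RPPH1 and H4C3 were lost, without PC replicate 3 H4C9, and without TSC replicate 3 TERC and H4C9 alone were kept (adjusted p up to 0.127).

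Chromatin regulators had a low median in both CTC libraries (−0.52 and −0.87). Of 26 tested members 2 fell, ZNF462 among them (7.69%), the median was −0.76, and in 20 both CTC libraries lay below all PC libraries, which 24.7% of all genes did. With the GC and length correction the median was −0.27. ZNF462, a zinc finger protein gene, was at 33.9 and 29.9 CPM in CTC and 84.9, 70.8 and 114 CPM in PC (adjusted p = 0.0135). Its call ended without CTC replicate 2 (adjusted p = 0.219) or PC replicate 3 (0.0521). Of 27 lysosome and autophagy genes the kinase gene ULK1 fell (3.7%, near the background; −1.45 ± 0.30, adjusted p = 0.0198, 0.0669 with the correction, 0.273 without CTC replicate 2, and 0.059 and 0.0757 without PC replicates 2 and 3).

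The 2 CTC libraries were also set against each other, and the 8 widest differences in each direction are named. FGFBP1, which encodes a carrier of fibroblast growth factors, had 3 counts in replicate 1 and 966 in replicate 2, a ratio of 30.8 between CPM values in favour of replicate 2 (95% counting interval 10.5 to 150). CRIP1, a LIM protein gene, was at 54.9 and 318 CPM (5.8, 4.45 to 7.72), and THOC6, FSTL3, INAVA, CDA, MYO15B and PLPP1 were also lower in replicate 1, by ratios of 4.29 to 5.9. In the other direction PRDM6 was at 78.8 and 2.96 CPM (ratio 26.7 of replicate 1 over replicate 2, 17.4 to 41.8) and TEX101 at 364 and 24.8 CPM, though TEX101 also ranged from 1.25 to 75.2 CPM within PC. ADM, CYP24A1, TGFBI, DONSON, EGR1 and FOS were higher in replicate 1 by ratios of 5.84 to 11.9. FGFBP1 and CRIP1 in replicate 2 lay in the range of TSC or above it (48.4 to 92.5 and 179 to 272 CPM), and in replicate 1 in or near that of PC (3.22 to 4.98 and 56.5 to 76.8 CPM). FGFBP1 was called higher in CTC (3.83 ± 0.61, adjusted p = 0.00523), a call that rests on replicate 2: without it the log2 difference was −0.39 (adjusted p = 0.864). With 1 library on each side these differences have no replicate check, and the intervals cover counting error only.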

How the data were processed

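RNA sequencing gave the authors' deposited table of read counts per gene for 8 libraries (2 CTC, 3 PC, 3 TSC). Alignment with STAR 2.5.3a and counting with featureCounts 1.5.3 on the hg38 build are named per the submitters' processing notes. The annotation, the strand setting and any removal of host reads were not given in the sources used here, so overlapping and antisense genes cannot be told apart. The table had 0 per-sample columns without a sample. The low total of CTC replicate 1 makes its single values coarse.

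From the counts, genes were kept by edgeR's filterByExpr, scaled by TMM and tested with edgeR 4.0.16 (quasi-likelihood, R 4.3.3) in 1 fit over all 8 libraries, with Benjamini-Hochberg adjustment over all 14255 tested genes and a threshold of 0.05. The model was tested on simulated data. CPM values use the TMM-scaled totals, and per-library differences add 2 CPM before the log2. Groups follow the labels. Intervals of ratios are 95% and cover counting error only. Eligible genes were called, had an average log2 CPM of at least 3 and did not overlap between CTC and PC libraries. Symbols of clones, small RNAs, antisense transcripts and pseudogenes were set aside. Named genes were the 12 largest rises and falls among eligible genes and the 15 largest rises of those with a PC mean of at least 5 CPM. Up to 4 members per list by smallest p were also named. The 8 widest differences each way between the CTC libraries among genes of at least 30 CPM were added. So were the 10 largest changes called with each CTC library alone, and fixed genes such as KRT8 and CD44. Other genes given as not called, and called list members beyond the 4, were chosen for their known role after their values were seen. The 43 gene lists and the members were chosen with earlier results of these data known. Alternatives were DESeq2 1.42.0, limma 3.58.1 (voom), other scalings and filters, a fold threshold of 1.5, thinning to equal depth, a replicate block, leaving out each library and offsets for GC content and length. Transcript GC content and length came from GENCODE 29, and gene coordinates and promoters from RefSeq GRCh38.p14. Of the 12 called immediate early genes, EGR3, ARC and NR4A2 had no promoter entry. Some list members are not reported here by name.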

Additional observations from a re-analysis of the deposited data

Results flagged for a closer look

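Given here are 5 named genes with a PC mean of at least 5 CPM for which the difference of CTC from PC and that of TSC from PC had opposite signs and the difference between CTC and TSC was itself called in edgeR's quasi-likelihood test (Benjamini-Hochberg adjustment). THBS1 (log2 CTC minus TSC 2.85, adjusted p = 0.000199) and LRP1 (2.9, adjusted p = 0.00112), whose proteins bind each other, were higher in CTC than in either other group. The histone genes H4C3 (−1.58, adjusted p = 0.0075) and H2BC11 (−1.38, adjusted p = 0.0382) and the RNase P RNA RPPH1 (−1.11, adjusted p = 0.043) were lower in CTC than in either.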

How the results depend on the processing

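Of 114 named genes called, 23 kept their call under every alternative in which they were tested. F13A1, TGFBI and HBB are among these 23 and were tested in 16, 17 and 18 of the 19 alternatives. Leaving out CTC replicate 2 ended more of the 114 calls than any other alternative. One direction reversed, that of FGFBP1 (−0.39 without CTC replicate 2 and 4.56 without CTC replicate 1). The 559 calls (200 higher, 359 lower) became 1125 (432 and 693) with DESeq2's Wald test, 1660 (711 and 949) with limma voom, 1535 (381 and 1154) without the filter on low counts and 1409 (525 and 884) with CTC and PC alone in the fit. They became 141 (77 and 64) with a fold threshold of 1.5, 269 (90 and 179) after thinning to equal depth and 447 higher with offsets for GC content and length. Leaving out 1 library gave 35 to 1575 calls, 32 to 497 higher and 3 to 1078 lower. For CTC against TSC 128 genes were called (0.898%), and 390 with the Wald test, 440 with voom, 728 without the filter, 82 with 2 groups alone, 47 with the fold threshold, 53 after thinning and 36 to 696 without 1 library. The cause of these moves was not tested. Counts moved by less than 1.5 times with DESeq2 size factors, a stricter filter and removed gene classes. At 957607 counts a count of 0 in CTC replicate 1 allows a level of up to 2.99 CPM.

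With the replicate number as a block, 261 genes were called in CTC against PC (84 higher, 177 lower) and 61 in CTC against TSC. The labels give the replicates a number and state no pairing, so the block was not taken as one. The deviations of CTC replicate 1 and PC replicate 1 correlated at 0.0258 and those of replicates 2 at 0.0124, across 9673 genes. These genes are not independent. With 2 CTC libraries, the deviations of 1 from their mean mirror those of the other. The correlations therefore cannot exclude a pairing.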
